A study of Sus scrofa with 22 samples.

Results

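The E8 hypoblast is the group of 129 pig embryo cells that the authors named Hypoblast_E8, out of 1647 cells in the series. Cell names gave the library and a barcode but no group, so the members were found as the cells whose log2-scaled values, fitted by least squares, rebuild the authors' deposited mean for that group. Recomputed from the 129 cells, 99.85% of the deposited means and of the deposited standard deviations were matched within 0.001. The samples are single cells of pig pre-implantation embryos, and the labels describe all embryonic libraries alike, as embryos of day 0 to day 14. They name no strain, sex, treatment, genotype or embryo of origin, so the embryonic day and the lineage of a cell rest on the authors' group names.

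The E8 hypoblast cells lie in 3 libraries, with 24 cells in P3, 66 in P4 and 39 in P5. The comparison groups are the hypoblast of E7 (38 cells in P8 and 35 in P9), of E9 (57 cells, all in P17) and of E10 (35 cells in P16, 22 in P5 and 33 in P6), and from the same day the epiblast, Epiblast_E8 (7 cells in P4 and 8 in P5), and the trophectoderm, TE_E8 (6 cells in P3, 14 in P4 and 3 in P5). An E8 hypoblast cell had a median of 251816 counts, from 32341 to 764183, and a median of 8626 detected genes. The 129 cells carry 73 distinct barcodes, of which 56 occur in at least 2 of the 3 libraries. Levels are given as CPM, a gene's share of all counts scaled to a fixed total, after adding up a group's cells within each library, which is called a library sum here. The sources used here do not give the number of embryos per library, so the spread between library sums may be partly technical.

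The hypoblast, or primitive endoderm, is the layer that separates from the pluripotent epiblast on the blastocoel side of the inner cell mass. Its cells are specified under FGF signalling by GATA6, SOX17 and GATA4, carry the receptor PDGFRA, lay down a basement membrane of collagen IV and laminin between themselves and the epiblast, and go on to line the yolk sac. As visceral endoderm they secrete apolipoproteins and take up nutrients by endocytosis, and a part of the layer secretes antagonists of WNT and Nodal that pattern the neighbouring epiblast.

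The group's name was checked against markers of hypoblast and of 5 other cell types. All 13 hypoblast markers were measured, all had at least 20 CPM over the pooled cells, and 12 were detected in at least 90% of the cells. The list includes the 3 given markers of this group, HSPB1, CLU and RSPO3, which are no independent check of its name. GATA4, a zinc-finger factor of endoderm, stood at 140, 127 and 99.8 CPM in the P3, P4 and P5 sums and was counted in 129 of 129 cells. SOX17, a factor that commits cells to endoderm, stood at 69.2, 65.0 and 51.3 CPM. PDGFRA stood at 242, 126 and 114 CPM. FOXA2, a pioneer factor of endoderm, was the marker below that share, with counts in 77.5% of the cells (95% Clopper-Pearson interval 69.3% to 84.4%, counting error only). The levels of these factors in all 3 libraries lay above those in the epiblast and trophectoderm sums, with 1 exception. GATA6 had 121, 80.8 and 60.7 CPM in P3, P4 and P5, and its P5 value lay below the 66.01 CPM of the P3 trophectoderm.

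Most markers of the other cell types were low, with exceptions in each of the epiblast, blood and germ cell lists. Of 10 measured trophectoderm markers none reached 20 CPM over the pooled cells, and their summed level was 44.6 to 115 CPM in the 3 E8 hypoblast sums against 1237 and 1254 CPM in the trophectoderm sums. Among 9 epiblast markers, NANOG had 0, 1.12 and 2.29 CPM and FGF4 was found in 0 of 129 cells, which allows a share of cells with a count of up to 2.33%. POU5F1, the pluripotency factor OCT4, was counted in 128 of 129 cells at 74.6, 61.9 and 49.8 CPM, below the 374 and 312 CPM of Epiblast_E8, and DNMT3B, a DNA methyltransferase, stood at 137 CPM over the pooled cells. The mesoderm markers TBXT and MIXL1 were also at 0 of 129 cells. Of 5 measured germ cell markers NANOS3 was at 0, while 2 were in at least 90% of the cells. KIT, a receptor tyrosine kinase, had 103, 113 and 80.9 CPM, above the 29.3 and 29.9 CPM of the epiblast, and DND1, an RNA-binding protein, had 65.1, 70.7 and 75.5 CPM, below the 362 and 344 CPM of the epiblast. In the list for maternal tissue and blood CD74 stood at 974 CPM but was as high in the epiblast and trophectoderm of the same day, while the leukocyte marker PTPRC was counted in 1 cell.

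**Figure D1:**
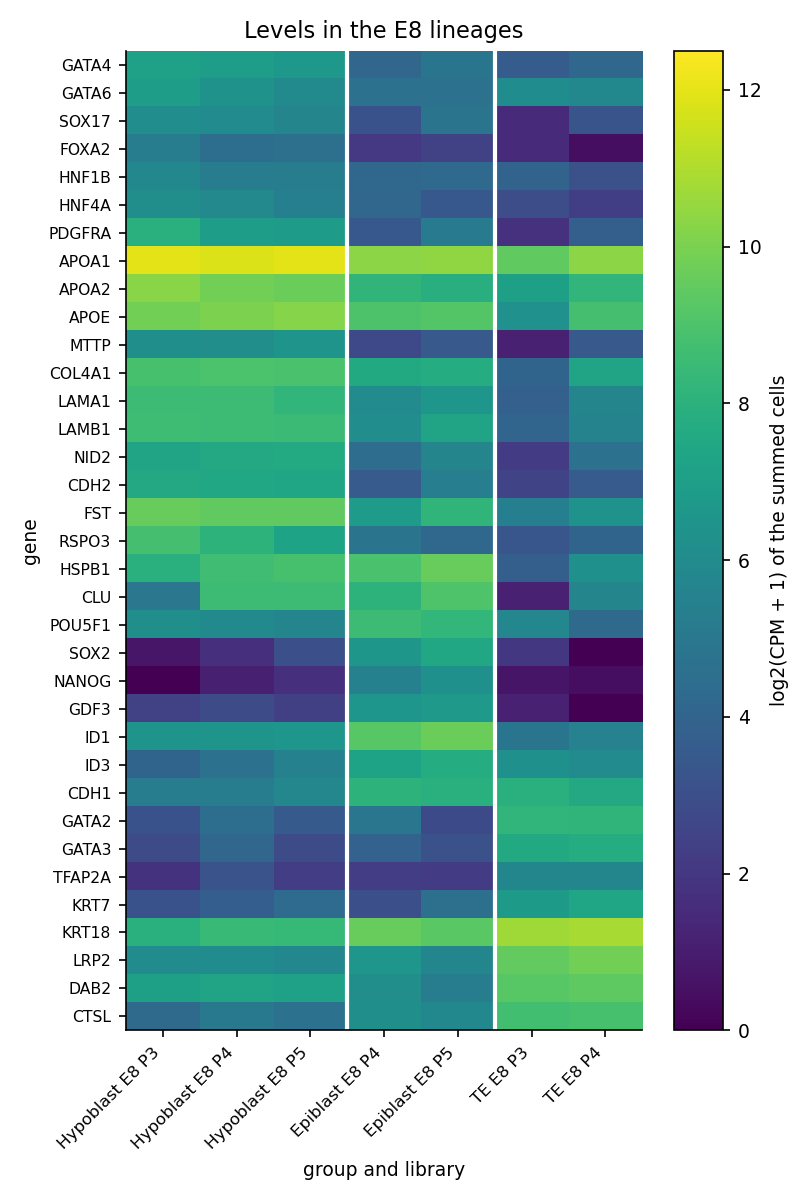
Colour map of log2(CPM + 1) for genes of the lists (rows) in the library sums of the E8 hypoblast, epiblast and trophectoderm (columns, separated by white lines). The rows from GATA4 to HSPB1, are mostly brighter in the hypoblast columns than in the trophectoderm columns, POU5F1 to GDF3 in the epiblast columns, and GATA2 to CTSL in the trophectoderm columns.

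The libraries of the E8 hypoblast were not alike. P3 stood apart from P4 and P5 in genes of the integrated stress response, through which cells adapt to amino-acid shortage and to unfolded protein in the endoplasmic reticulum. By a rule of at least 4-fold in every pair of sums with at least 50 CPM in the higher one, 43 of 26310 genes (0.163%) were higher in both P4 and P5 than in P3 and 3 (0.0114%) were lower, whereas P5 against P4 gave 8 higher (0.0304%) and 2 lower (0.0076%). These are descriptions with no test, and the lists of integrated stress, heat shock and immediate early genes were drawn up after the values had been seen. The 43 held 8 of 25 integrated stress genes, 3 of 16 heat shock genes, 3 of 14 immediate early genes and 4 of 10 genes of the p53 and stress list. These counts overlap, since ATF3 and DDIT3 are in both the integrated stress list and the p53 and stress list. CDKN1A, the cell cycle inhibitor p21, had 0.519, 55.6 and 58.7 CPM in P3, P4 and P5, and the summed immediate early genes had 629, 1958 and 1053 CPM. TRIB3, a pseudokinase induced under such stress, had 0.173 CPM in P3, 158 in P4 and 214 in P5. CHAC1, which degrades glutathione, had 0, 124 and 116 CPM in the same order. Each was absent or nearly so from P3 and abundant in the other libraries. DDIT3, the factor CHOP, had 88.6, 501 and 566 CPM, and ATF3 had 35.3, 458 and 359 CPM. The co-chaperone BAG3 had 87.03, 594 and 442 CPM and the small heat shock protein HSPB8 27.9, 240 and 317 CPM, so that the P4 and P5 values of these genes lay several times above P3.

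The difference ran through single cells. Summed over the 25 measured genes of the stress list, the P3 cells had from 2257 to 4727 CPM, the P4 cells from 4520 to 12440 CPM and the P5 cells from 6659 to 12293 CPM. A single cell of the 105 in P4 and P5 was at or below the highest P3 cell. The same sum had medians of 2924 and 2923 CPM in the E7 hypoblast libraries and 3397 CPM in E9. In E10 it was 3823, 4034 and 3813 CPM, the second of these in the E10 cells of P5, the library that also holds 39 E8 hypoblast cells. The other E8 lineages had medians of 5505 and 6052 CPM in the P4 and P5 epiblast and 3335 and 5011 CPM in the P3 and P4 trophectoderm. P4 was thus above P3 in the trophectoderm as well, where 83 genes were at least 4-fold higher in P4 (0.315%) and 12 lower (0.0456%). In that pair the summed hypoblast markers moved too, from 369 CPM in P3 to 1196 CPM in P4, and the part of hypoblast RNA in the trophectoderm difference was not tested. In P3, P4 and P5 the median counts per E8 hypoblast cell were 247866, 287694 and 202872, spike-ins took 2.20%, 1.96% and 2.23% of counts, and the median mitochondrial share was 2.40%, 1.88% and 2.12%. The part of these in the P3 difference was not tested. EIF1AY, on the Y chromosome, was counted in 54.2% of the P3 cells, 3.0% of the P4 cells and 71.8% of the P5 cells, and in 0 of 7 epiblast and 0 of 14 trophectoderm cells of P4. Its level was 4.15, 0.11 and 7.95 CPM in these 3 hypoblast sums. The hypoblast sums of the other days had 9.49 to 130 CPM, with 127 CPM in the E10 cells of P5, and the sex of the cells was not assigned. The part of EIF1AY in the difference between libraries was not tested either.

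**Figure D2:**
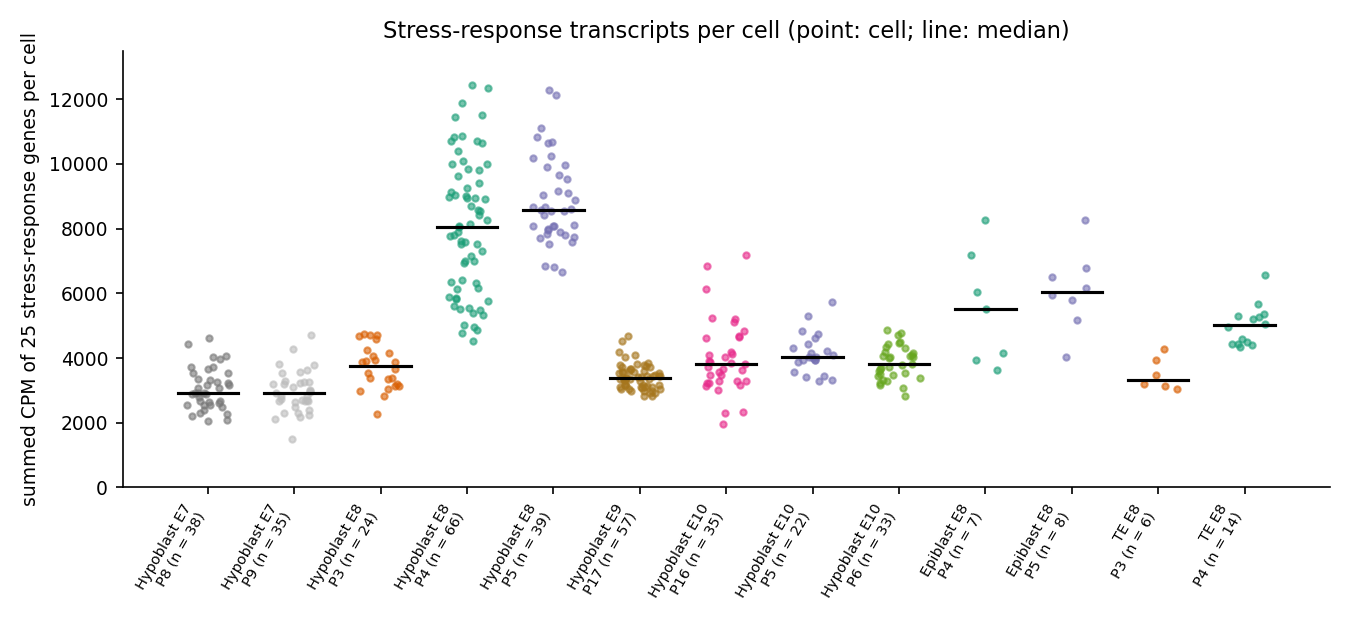
Summed CPM of 25 genes of the integrated stress and unfolded protein response in each cell (points) by group and library, with the median of each library as a line. The medians of the E8 hypoblast cells of P4 and P5 lie above those of P3 and of every E7, E9 and E10 hypoblast library, including the E10 cells of P5. Single cells overlap: the E8 cells of P4 start at 4520 CPM, and the E10 cells reach 7189 CPM in P16 and 5731 CPM in P5.

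The 3 given markers differed in how far they set the group apart. RSPO3, a secreted amplifier of WNT signalling (chromosome 1, 35985985 to 36066432, Sscrofa11.1), had 442, 270 and 153 CPM in the P3, P4 and P5 sums of the E8 hypoblast. Its levels were 27.3 and 17.7 CPM in Epiblast_E8 and 9.17 and 15.4 CPM in TE_E8, so that all hypoblast sums lay above those of both other lineages. HSPB1, a small heat shock protein (chromosome 3, 10038074 to 10039441), had 244, 408 and 464 CPM in the E8 hypoblast. It had 474 and 761 CPM in Epiblast_E8 and 12.8 and 76.0 CPM in TE_E8, and thus marked the hypoblast against the trophectoderm but not against the epiblast. CLU, the secreted chaperone clusterin (chromosome 14, 11336585 to 11352569), had 29.6 CPM in P3 against 375 in P4 and 384 in P5. It had 274 and 528 CPM in Epiblast_E8, and 1.22 CPM in P3 and 51.1 CPM in P4 in TE_E8. In each lineage measured in P3 and P4, CLU was the lower in P3. CLU was counted in 13 of the 24 P3 cells and in all cells of P4 and P5.

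**Figure D3:**
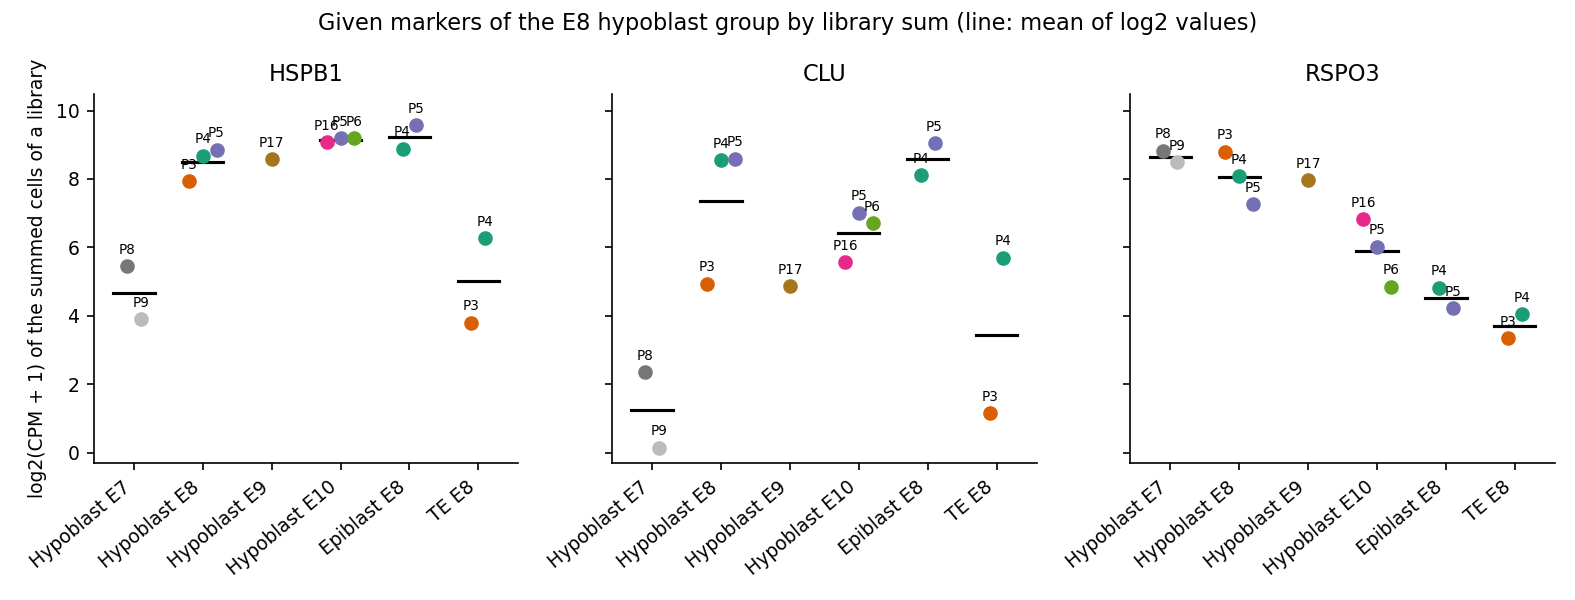
Levels of HSPB1, CLU and RSPO3 as log2(CPM + 1) on the vertical axis in each library sum (points, labelled by library) of 6 groups, with the mean of the log2 values as a line where a group has more than 1 library. RSPO3 is lower at E10 than at the earlier hypoblast days and lowest in the epiblast and trophectoderm, and the CLU value of E8 library P3 lies near that of E9.

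The E8 hypoblast was set against the hypoblast of E7, a test of 3 library sums against 2 in a single edgeR quasi-likelihood fit over 65 sums of all embryonic groups, with Benjamini-Hochberg adjustment at 0.05. E7 and E8 share no library, so day and library cannot be told apart. Of 23045 genes tested, 55 were called (0.239%): 33 were higher at E8 (0.143%) and 22 lower (0.0955%). In all 55 the sums of the days did not overlap. The calls were made from these same sums, so this is no separate support for them. Over all tested genes the sums were apart for 14.7% with E8 above and 13.1% with E8 below. A fit of the hypoblast sums alone called 912 of 18539 (4.92%), 604 higher (3.26%) and 308 lower (1.66%). Leaving out 1 library at a time gave 77 calls without P3, 8 without P4, 4 without P5, 14 without P8 and 5 without P9, and 62 of the 77 were higher at E8. Of the 12 named genes that were higher, 12 were still called without P3, 5 without P4, 1 without P5, 2 without P8 and 0 without P9. Of the 12 named as lower, these counts were 9, 0, 1, 3 and 3. For the 33 genes called higher, the median log2 difference from E7 was 2.24 in P3 and 4.19 in P4 and P5 together, and P3 was the lowest E8 library for 26 of them. For the 22 called lower the medians were -3.05 and -3.15. The higher genes thus differed more from E7 in P4 and P5 than in P3. The lower genes had like medians, with P3 the highest E8 library for 12 of them and the lowest for 7.

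Chaperones were among the genes that rose. CLU rose by 6.94 ± 1.28 log2 units (SE, adjusted p = 0.00599) from 4.12 and 0.107 CPM in the E7 sums P8 and P9. HSPB1 rose by 3.76 ± 0.78 (adjusted p = 0.0161) from 42.5 and 13.9 CPM. HSPB8 rose by 7.715 ± 1.501 (adjusted p = 0.00948) from 1.24 and 0.64 CPM, and BAG3, its partner in chaperone-assisted autophagy, by 3.68 ± 0.80 (adjusted p = 0.0253) from 27.1 and 33.9 CPM. In P3 these genes also lay above both E7 sums. HSPA5, the chaperone BiP of the endoplasmic reticulum, rose by 1.76 ± 0.37 (adjusted p = 0.0167), from 221 and 218 CPM to 504, 771 and 862 CPM. In the chaperone list 4 of 14 tested genes were called higher and none lower, beside 0.143% and 0.0955% of all genes tested. The list had a median log2 change of 1.19, beside 0.10 over all genes tested. The hypoblast sums alone called 10 of 14 higher, beside 3.26% of all genes in that fit. The list holds HSPB1 and CLU, given markers of the group, which are 2 of the 4 calls and 2 of the 10. RSPO3 changed by -0.43 ± 0.63 (adjusted p = 0.898), and its E8 and E7 sums overlapped.

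The matrix genes NID2 and HAPLN1 were also called higher at E8. NID2, the basement-membrane linker nidogen 2, had 10.46 and 4.59 CPM at E7 and 158, 188 and 198 CPM at E8, a rise of 4.63 ± 0.93 (adjusted p = 0.0110). The hyaluronan link protein HAPLN1 had 5.93 and 0.107 CPM at E7 and 317, 156 and 246 CPM at E8, a rise of 6.30 ± 1.34 (adjusted p = 0.0200). P3 held the highest HAPLN1 value, unlike the chaperones. NID2 was the only call among 14 tested basement-membrane genes, whose median log2 change was 1.41. The sums of 12 of the 14 did not overlap, all with E8 above, beside 14.7% of all genes tested. The hypoblast sums alone called 10 of 13 higher, beside 3.26% of all genes in that fit. SPARC, a collagen-binding matrix protein, had 14.99 and 8.21 CPM at E7 and 207, 226 and 219 CPM at E8, but its difference of 4.27 ± 1.30 had an adjusted p of 0.194 over all sums and 1.2e-05 in the hypoblast sums alone. COL4A1 had 211 and 165 CPM at E7 and 467, 490 and 480 CPM at E8, a difference of 1.41 ± 0.65 (adjusted p = 0.488). LAMA1, the laminin chain of the earliest basement membranes, had 161 and 108.5 CPM at E7 and 381, 383 and 299 CPM at E8 (1.45 ± 0.70, adjusted p = 0.508). P3 did not stand apart from P4 and P5 in these 3 genes.

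Among metabolic and signalling genes that rose, ME1, the cytosolic malic enzyme that supplies NADPH, had 7.25 and 6.51 CPM at E7 and 136, 186 and 204 CPM at E8, a rise of 4.73 ± 0.77 (adjusted p = 0.00167). LDHA, a lactate dehydrogenase subunit, rose by 2.30 ± 0.48 (adjusted p = 0.0167), from 43.1 and 53.4 CPM to 187, 241 and 251 CPM. It was the only call of 16 glycolysis and hypoxia genes, whose median change was 0.23. The hypoblast sums alone called 3 of these 16 higher, beside 3.26% of all genes in that fit. None of 16 oxidative phosphorylation genes was called (median change -0.004). PKIB, an inhibitor of protein kinase A, had 13.2 and 6.51 CPM at E7 and 380, 291 and 370 CPM at E8. The tight-junction protein CLDN1 had 3.13 and 0.747 CPM at E7 and 63.0, 129 and 67.3 CPM at E8. Both rose, by 5.18 ± 1.01 (adjusted p = 0.00948) and 5.48 ± 1.04 (adjusted p = 0.00821). ADM, the vasodilator peptide adrenomedullin, rose by 5.10 ± 1.12, the lipid-synthesis enzyme GPAT3 by 4.37 ± 0.99 and the small MAF factor MAFF by 7.36 ± 1.64, with adjusted p of 0.0256, 0.0330 and 0.0291. MAFF had 3.11 CPM in P3 against 150 in P4 and 83.7 in P5, so that its P3 value was nearer to E7 than to the other E8 sums.

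Several E7 transcripts fell to low levels. SYCP1, a protein of the meiotic synaptonemal complex, had 46.5 and 101 CPM at E7 and 0, 0 and 2.07 CPM at E8, a change of -6.63 ± 1.21 (adjusted p = 0.00599). It also stood at 24.1 and 55.3 CPM in Epiblast_E8. C1QA, a chain of complement C1q, had 82.8 and 53.2 CPM at E7 and 0, 1.01 and 0.981 CPM at E8 (-6.50 ± 1.25, adjusted p = 0.00948). PGM5, a phosphoglucomutase-like protein of cell adhesions, went from 274 and 239 CPM to 11.2, 2.92 and 1.52 CPM (-5.59 ± 1.01, adjusted p = 0.00585). These 3 genes also had at most 6.23 CPM in every E9 and E10 hypoblast sum. PNP, which breaks down purine nucleosides, went from 440 and 606 CPM to 81.1, 65.1 and 72.6 CPM (-2.77 ± 0.50, adjusted p = 0.00585), and stood at 233 and 313 CPM in Epiblast_E8. The head-organising homeobox factor OTX2 fell from 233 and 295 CPM to 79.1, 26.8 and 34.3 CPM (-2.43 ± 0.56, adjusted p = 0.0393), a call that was lost with DESeq2's size factors. IL6ST, the shared receptor of the interleukin 6 family, fell by 1.98 ± 0.43 (adjusted p = 0.0246), with 161 and 190 CPM at E7 and 66.3, 41.3 and 20.6 CPM at E8. YBX3, TMEM86A, ANXA9, FITM1, USP48 and RPIA fell as well, with log2 changes from -3.78 for TMEM86A to -1.57 for RPIA.

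**Figure D4:**
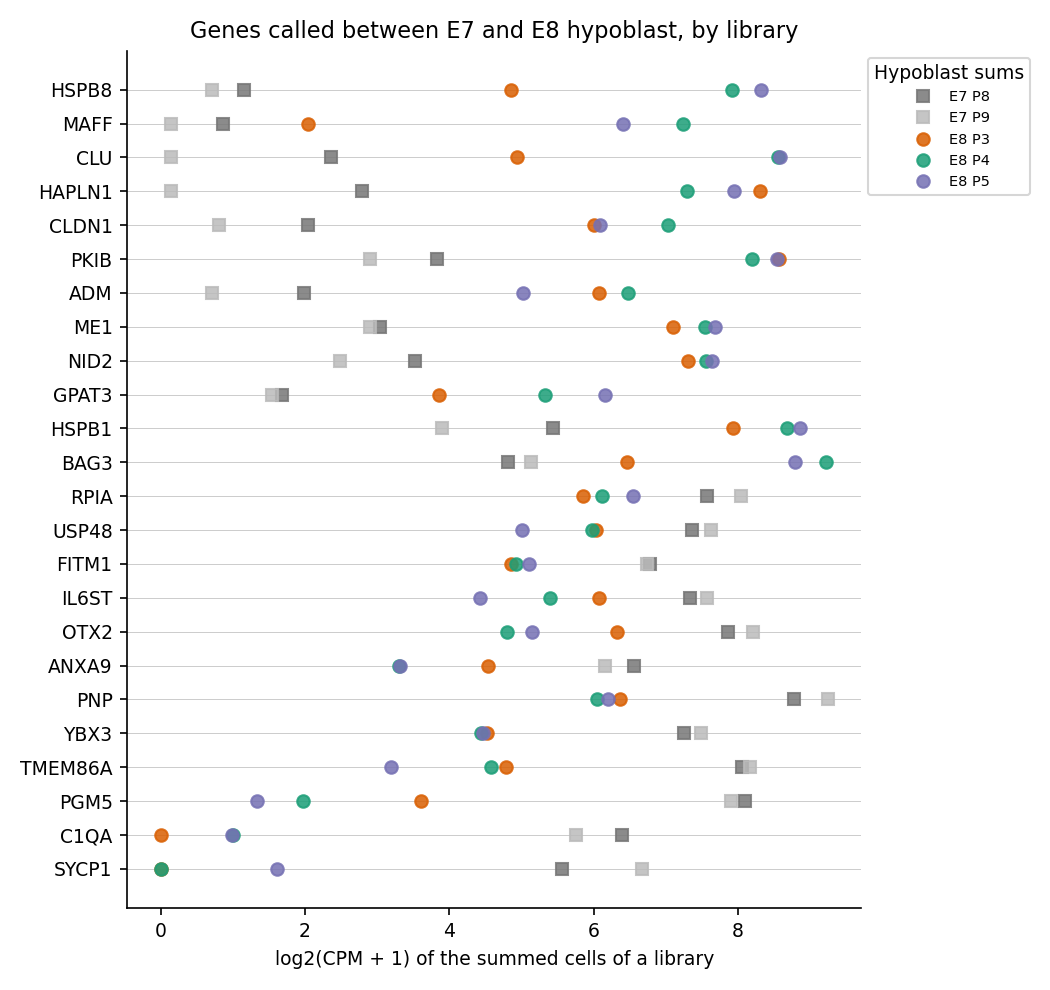
Levels of the 24 named genes called between the E7 and E8 hypoblast, as log2(CPM + 1) on the horizontal axis, with squares for the E7 sums P8 and P9 and circles for the E8 sums P3, P4 and P5. E8 and E7 symbols do not overlap in any row, since genes were named only where the sums were apart. The orange P3 circle trails the other E8 circles for HSPB8, MAFF and CLU but not for HAPLN1 or PKIB. For PGM5, OTX2, ANXA9 and IL6ST the orange circle lies nearer to the E7 squares than the other E8 circles do.

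The regulators that define the hypoblast were not among the called genes. None of 11 tested genes of the list of hypoblast transcription factors and receptor was called, with a median log2 change of 0.10. GATA4 changed by 0.10 ± 0.67 (adjusted p = 1) and SOX17 by 0.06 ± 1.03 (adjusted p = 1). GATA6 had 182 and 187 CPM at E7, above all E8 sums, a difference of -1.01 ± 0.56 (adjusted p = 0.582, and 0.034 in the hypoblast sums alone). POU5F1 had 131 and 224 CPM at E7, again above all E8 sums (-1.44 ± 0.51, adjusted p = 0.293). Of 16 genes of secretion and transport none was called, and the median change was 0.02. The hypoblast sums alone called 2 of 15 higher, beside 3.26% of all genes in that fit. APOA1, the main protein of high-density lipoprotein, had 4194 and 3634 CPM at E7 and 4125, 3689 and 4001 CPM at E8. A missed threshold does not show that the levels were equal.

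No gene of the BMP, WNT, FGF or retinoic acid lists was called between E7 and E8, and OTX2 was the only call in the list of anterior endoderm. BMP2, the ligand that extraembryonic endoderm sends to neighbouring tissue, had 18.2 and 14.4 CPM at E7 and 41.4, 59.4 and 46.6 CPM at E8 (1.65 ± 0.97, adjusted p = 0.610). ID3, a target of BMP signalling, had 4.61 and 3.31 CPM at E7 and 15.1, 25.5 and 44.6 CPM at E8 (2.90 ± 0.75, adjusted p = 0.0821). The hypoblast sums alone called 4 of 14 BMP genes higher, 2 of 14 retinoic acid genes lower and none of 15 WNT genes. They called 1 of 15 FGF genes higher and 2 lower, and 2 of 12 anterior endoderm genes higher and 1 lower. Over all genes, that fit called 3.26% higher and 1.66% lower. On the side of the E7 group, CYP26A1, which degrades retinoic acid, had 130 and 78.0 CPM at E7 and 20.4, 33.1 and 9.26 CPM at E8, and DHRS3, which turns retinal back to retinol, 204 and 142 CPM at E7 and 64.7, 50.04 and 50.12 CPM at E8. SPRY1, a feedback inhibitor of FGF signalling, had 113 and 156 CPM at E7 and 15.6, 34.2 and 49.8 CPM at E8. The sums of these 3 genes did not overlap, and their adjusted p was 0.336, 0.479 and 0.297 over all sums.

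E9 has a single hypoblast library, P17, so no test was made and the values have no replicate check. By the 4-fold rule against every E8 sum, 48 genes were higher at E9 (0.182%) and 2 were lower (0.0076%). The gene lists used here held 5 of the 48 higher: DKK1, HSPG2, PTH1R, SMAD6 and FGFR1. DKK1, a secreted inhibitor of WNT signalling, had 0.173, 0.532 and 28.4 CPM in the E8 sums P3, P4 and P5 and 173 CPM at E9. HSPG2, the basement-membrane proteoglycan perlecan, had 40.8, 59.2 and 49.5 CPM at E8 and 243 CPM at E9. FGFR1 had 5.19, 6.81 and 4.68 CPM at E8 and 52.1 CPM at E9. Several endoderm factors also had their highest hypoblast value at E9, with SOX17 at 217 CPM, GATA4 at 252 CPM and GATA6 at 240 CPM. CLU at E9 was 28.2 CPM, close to its P3 value at E8, while HSPB1 was at 380 CPM.

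The E10 hypoblast was compared with E8 in the same fit, 3 sums against 3. This comparison was added after the groups' libraries were known, and P5 holds cells of both days. The edgeR test called 0 of 23045 genes (0.0%), with 1804 at an unadjusted p under 0.05. With the library as a block over all sums, added after seeing the data, 10 genes were called, 2 higher and 8 lower. DESeq2 called 236, of which 228 were lower at E10, and the edgeR fit of the hypoblast sums alone called 1017 of 18539 (5.49%), 325 higher (1.75%) and 692 lower (3.73%). Non-overlapping sums were found for 11.8% of genes with E10 above and 8.37% with E10 below. Members of the lists are therefore given as values, with those within P5, where both days share the library, beside them.

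DKK1 had 389, 364 and 437 CPM in the E10 sums P16, P5 and P6, a difference from E8 of 5.08 ± 1.09 (adjusted p = 0.210, and 0.0147 in the hypoblast sums alone). All E10 sums lay above all E8 sums. At E8 the DKK1 counts were nearly confined to P5, where 38 of 39 hypoblast cells had a count, against 1 of 24 in P3 and 3 of 66 in P4. In P5 the epiblast at 25.8 CPM (8 of 8 cells) and the trophectoderm at 34.3 CPM (3 of 3 cells) had as much DKK1 as the hypoblast, while the P4 epiblast had 2.60 CPM and the P3 and P4 trophectoderm had none in 6 and 14 cells. The P5 level at E8 was thus alike in all lineages of that library and does not set the hypoblast apart. Whether these counts come from the E8 hypoblast cells themselves was not tested. RBP4, the retinol carrier, had 0.346, 0.425 and 10.8 CPM in the P3, P4 and P5 hypoblast of E8 and 52.9 CPM in the E10 cells of P5. It had 39.0 and 48.0 CPM in the P4 and P5 epiblast, and 15.2 CPM in the 3 trophectoderm cells of P5.

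In the BMP list 12 of 15 genes had E10 above E8 without overlap, beside 11.8% of all genes tested. The list had a median log2 difference of 1.01, beside 0.03 over all genes tested. None passed the test over all sums. In the hypoblast sums alone 4 of 14 were called higher, beside 1.75% of all genes in that fit. ID3 had 227, 165 and 149 CPM at E10 (2.42 ± 0.60, adjusted p = 0.242). ID1, also a BMP target, had 88.9, 87.2 and 93.5 CPM at E8 and 396, 343 and 306 CPM at E10 (1.71 ± 0.66, adjusted p = 0.578). SMAD6, an inhibitor of the BMP pathway, had 20.8, 20.5 and 9.59 CPM at E8 and 48.9, 59.8 and 66.4 CPM at E10. Within P5 these differences were 1.86 for ID3, 1.87 for ID1 and 2.52 for SMAD6 on the log2(CPM + 1) scale. IGF1, an insulin-like growth factor, had 18.5, 10.1 and 15.7 CPM at E8 and 92.7, 118 and 151 CPM at E10 (2.77 ± 1.23, adjusted p = 0.614).

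Chaperones were among the genes with lower values at E10. Of 14, 8 had E10 below E8 without overlap, beside 8.37% of all genes tested, with a median log2 difference of -0.87. In the hypoblast sums alone 9 were called lower, beside 3.73% of all genes in that fit, but none over all sums. HSPA5 had 516, 460 and 387 CPM at E10 (-0.90 ± 0.31, adjusted p = 0.530), with -0.90 within P5. CLU had 46.2, 129 and 104 CPM at E10 (-1.77 ± 0.83, adjusted p = 0.625), and overlapped with E8 through P3, while HSPB1 had 536, 586 and 584 CPM, above every E8 sum (0.36 ± 0.59, adjusted p = 0.938, and -0.23 with the library as a block). Of the secretion and transport genes 4 of 15 were called lower in the hypoblast sums alone, as were 3 of 16 glycolysis and hypoxia genes.

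RSPO3, OTX2 and HHEX also had lower values at E10. RSPO3 had 113, 64.1 and 27.7 CPM at E10, below every E8 sum (-2.31 ± 0.60, adjusted p = 0.283). OTX2 had 12.7, 22.8 and 4.69 CPM at E10 (-2.07 ± 0.53, adjusted p = 0.259). HHEX, a homeobox factor of anterior endoderm, had 21.1 and 14.4 CPM at E7, 54.2, 53.8 and 87.7 CPM at E8, 14.4 CPM at E9 and 27.0, 21.9 and 11.101 CPM at E10, so that every E8 sum lay above every sum of the other days. Within P5 the log2 differences from E8 to E10 were -1.24 for RSPO3, -0.57 for OTX2 and -1.95 for HHEX. Inside P5, 5 of 25 integrated stress genes, a list drawn up after the values were seen, passed the 4-fold rule as lower at E10 and 0 as higher. The median log2 ratio of the 25 was -1.32. Among the 5, TRIB3 had 214 CPM in the E8 cells of P5 and 28.5 CPM in its E10 cells. CHAC1 had 116 and 15.9 CPM, and NUPR1, a stress-induced nuclear protein, 192 and 10.4 CPM. The immediate early list went the other way, with a median log2 ratio of 0.57. By the 4-fold rule P5 held 54 genes higher at E10 (0.205%) and 24 lower (0.0912%). Of 16 oxidative phosphorylation genes, 15 had E10 below E8 without overlap, beside 8.37% of all genes tested, with a median log2 difference of -0.54. In the hypoblast sums alone 13 of 16 were called lower, beside 3.73% of all genes in that fit, but none over all sums.

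**Figure D5:**
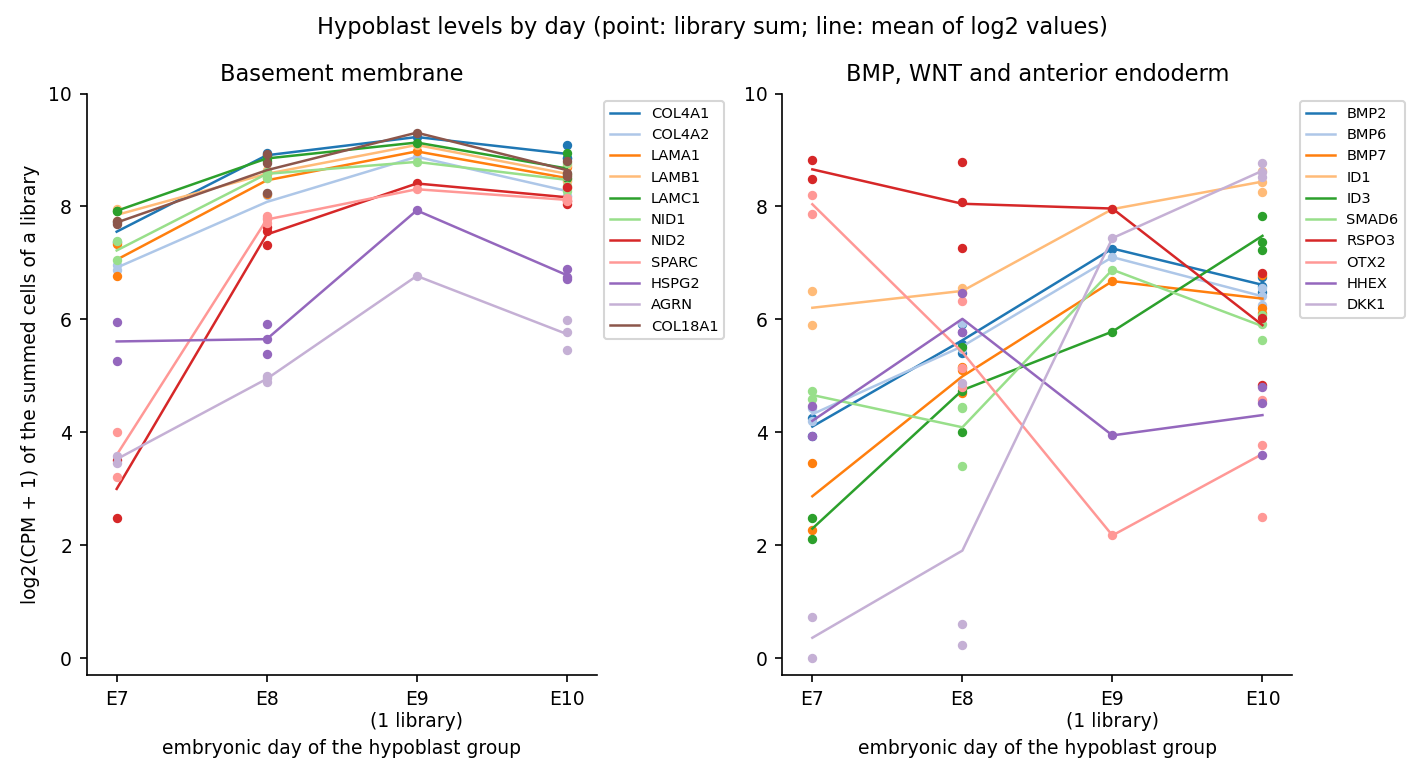
Levels of 11 basement-membrane genes (left) and 10 genes of the BMP, WNT and anterior endoderm lists (right) as log2(CPM + 1) on the vertical axis against the day of the hypoblast group, with library sums as points and the mean of their log2 values joined by lines. NID2 and SPARC climb between E7 and E8 and the other matrix genes less, HHEX is highest at E8, and OTX2 is lower at each of E8, E9 and E10 than at E7.

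Beside the other lineages of its day the E8 hypoblast is described without a test, since lineages were named from expression. Against Epiblast_E8, in P4 and P5, 59 genes were at least 4-fold higher in the hypoblast (0.224%) and 160 lower (0.608%) in both libraries. Against TE_E8, in P3 and P4, 149 were higher (0.566%) and 141 lower (0.536%). Of 14 basement-membrane genes, 8 passed the rule as higher against the trophectoderm and none against the epiblast. LAMB1 had 397, 383 and 364 CPM in the hypoblast, 69.6 and 158 CPM in the epiblast and 15.9 and 47.0 CPM in the trophectoderm. The cadherins differed from both other lineages. CDH2, N-cadherin, had 185, 173 and 170 CPM in the hypoblast, against 11.06 and 39.9 CPM in the epiblast and 4.89 and 11.02 CPM in the trophectoderm. CDH1, E-cadherin, had 37.7, 38.7 and 54.7 CPM in the hypoblast, against 271 and 247 CPM in the epiblast and 244 and 184 CPM in the trophectoderm.

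Of 16 secretion and transport genes, 2 passed the rule as higher against the epiblast, MTTP and APOM, and these and APOC3 against the trophectoderm. MTTP, which loads lipid onto apolipoprotein B, had 72.8, 71.6 and 86.5 CPM, against 5.86 and 10.4 CPM in the epiblast and 1.22 and 10.3 CPM in the trophectoderm. APOM, a carrier of sphingosine phosphate, had 87.2, 69.2 and 69.6 CPM, against 8.46 and 11.8 CPM and 1.22 and 4.04 CPM. APOB itself was near 0 in the hypoblast, at 1.56, 0.744 and 0.545 CPM, and AFP was at 0 in all 3 sums. Of 8 genes of endocytic uptake 4 were lower in the hypoblast than in the trophectoderm and 1 was higher, and none passed the rule against the epiblast. LRP2, the endocytic receptor megalin, had 64.7, 67.1 and 56.7 CPM in the hypoblast and 732 and 901 CPM in the trophectoderm, and DAB2, its adaptor, 137, 158 and 142 CPM and 614 and 677 CPM. CTSB, a lysosomal protease, was the higher one, with 312, 294 and 300.2 CPM against 40.3 and 66.5 CPM. CUBN, the partner of megalin in visceral endoderm, was below 1 CPM in every E8 hypoblast sum. Against the epiblast the BMP targets ID1 and ID3 were low. ID1 had 613 and 834 CPM in the epiblast, against the hypoblast values given above. NODAL had 174 and 26.3 CPM in the epiblast and 3.98, 8.83 and 5.12 CPM in the hypoblast. FST, an inhibitor of activin, had 785, 690 and 704 CPM in the hypoblast and 116 and 291 CPM in the epiblast.

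Among the 129 cells the genes that varied most differed in how far they followed the libraries. The 12 genes whose deposited standard deviation lay farthest above that of genes of like mean were CLU, TRIB3, ATF3, IFRD1, HSPA6, HSPB8, PPP1R15A, INSIG1, TULP2, HBEGF, NUPR1 and SLC28A3. For CLU 72.3% of the variance between cells lay between the 3 libraries, for TRIB3 50.7% and for ATF3 64.2%. The share was 48.9% for INSIG1, 46.9% for HSPB8, 33.7% for NUPR1 and 27.1% for HSPA6. PPP1R15A and TULP2 are neighbours on chromosome 6, and whether reads of one were counted for the other was not tested. SLC28A3, a nucleoside transporter, had the smallest share of the 12, with 6.13% between libraries. It was counted in every cell, with a median of 66.1 CPM and a 90th percentile of 649 CPM, and its levels were 665 and 810 CPM in the trophectoderm sums.

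Of 186 listed genes with at least 20 CPM over the pooled cells, 31 were detected in fewer than 90% of the cells. One of these was CHAC1, counted in 0 of 24 P3 cells and in 97.0% and 92.3% of the P4 and P5 cells. FOXA2 and OTX2, also among the 31, were found in the largest share of cells in P3. FOXA2 was counted in 95.8%, 72.7% and 74.4% of the P3, P4 and P5 cells, and OTX2 in 91.7%, 60.6% and 79.5%. OTX2 had a median of 10.17 CPM and a 90th percentile of 98.4 CPM. With every cell thinned to 50000 counts, which left out 2 cells, OTX2 was counted in 44.9% and FOXA2 in 54.3% of cells, and 72 of the 186 genes fell below the 90% mark. Genes of shared structures varied together within libraries: COL4A1 and COL4A2, the paired chains of collagen IV, had Spearman coefficients of 0.47, 0.61 and 0.81 in P3, P4 and P5. GATA6 and SOX17 had coefficients of -0.04, 0.33 and 0.59, and HHEX and OTX2 of 0.25, 0.19 and -0.16. These are descriptions across cells of a library, whose depths differ (32341 to 764183 counts per cell in P4), and carry no test. Each cell was also set against the pooled hypoblast of the other days by Spearman correlation over 2000 variable genes. All cells of P4 and P5 were nearest to E10, while in P3 12 cells were nearest to E9, 11 to E10 and 1 to E7. P5 is a library of E10 as well, and P4 is not.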

How the data were processed

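Single cells of pig embryos were measured by RNA sequencing with a barcode for each cell. The authors deposited whole-number counts per gene and cell for 29214 genes and 92 spike-ins, and the mean and standard deviation per group of log2(CPM/10 + 1). Per the submitters' processing notes, the tools were UMI-tools, featureCounts 1.6.4 and STAR 2.7.1a, on the build Sscrofa11.1, and the sources used here do not state the role of each. The labels give no embryonic day per library, and by the recovered groups P5 holds cells of E8 and E10.

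Cells were assigned to the authors' 39 groups by least squares on the deposited log2 means, and for each group at least 93.11% of means and 99.82% of standard deviations were matched within 0.001. Gene names came from the reference table for 14800 identifiers and from matching deposited means for 587. Counts were added per group and library (at least 5 cells, fewer for the earliest stages), which left TE_E8 of P5 out of the fit. The sums were tested with edgeR 4.0.16 (TMM, trended dispersion, quasi-likelihood test, R 4.3.3) after filtering low counts, with DESeq2 1.42.0 as an alternative. The test was checked on simulated data. Named genes are the 12 in each direction with the largest change among those called, where the higher group reached 50 CPM, with sums that do not overlap and a symbol, leaving out ribosomal and mitochondrial genes, plus members of the lists. Of genes that vary between cells, the 12 with the largest excess of the deposited standard deviation were named. Promoter motifs were not analysed here. Lineages and E9 were described by a rule of 4-fold with a pseudocount of 1 CPM. No doublet caller was run. The members and the gene lists were chosen with earlier results of these data known. Library totals ran from 7415760 to 39405309 counts, and intervals cover counting error only.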

Additional observations from a re-analysis of the deposited data

How the results depend on the processing

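The count of called genes between E7 and E8 moved from 55 to 347 with DESeq2, 374 with at least 10 cells per sum, 912 with the hypoblast groups alone and 419 without a filter on low counts, and leaving out 1 library gave 4 to 77. Between E8 and E10 the count of 0 became 236 with DESeq2, 362 with at least 10 cells per sum, 1 with cells of at least 6000 genes, 1017 with the hypoblast groups alone and 148 without the filter, and leaving out 1 library gave 0 to 1. The E9 count of 50 became 27 with a pseudocount of 5, and 67 to 102 when an E8 library was left out. Beside the epiblast, 219 genes became 490 in P4 alone and 391 in P5 alone, and beside the trophectoderm 290 became 508 in P3 alone and 461 in P4 alone. The 31 listed genes found in under 90% of cells became 72 after thinning, 50 with at least 2 counts and 47 in P3 alone. Fewer sums enter the fits that leave out libraries or groups, and for the other settings the cause was not tested. Of the alternatives for the named genes called between E7 and E8, 203 kept the call, 85 lost it and none turned the direction. Of those for the 3 given markers in comparisons without a call, 46 gave no call, 4 gave one and 1 turned the direction. The library as a block, added after seeing the data, could be fitted for E8 and E10, through P5 and other groups of these libraries. It gave 10 calls in place of 0 and turned HSPB1 from 0.36 to -0.23. E7 and E8 could not be fitted with this block. The planned test of E9 was not run, since E9 has 1 library.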
